A study of Mus musculus with 21 samples.

Results

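The 5 NF-kB subunits Nfkb1, Nfkb2, Rel, Rela and Relb and the 5 inhibitors Nfkbia, Nfkbid, Nfkbie, Nfkbiz and Tnfaip3 were followed in neutrophils (PMNs) and renal tubular epithelial cells (TECs) of mice. They were taken by gene symbol and are 10 of the 54123 genes in the table, and all 10 passed the filter on low counts in both cell types. The reads of a gene were added over its transcripts and over both files of a library. Levels are given as CPM, counts scaled to a common library size over all 21 libraries.

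NF-kB dimers of Rela, Rel or Relb with the processed products of Nfkb1 or Nfkb2 bind kappa B sites in promoters and enhancers of inflammatory genes. In resting cells the I kappa B proteins hold the dimers in the cytoplasm, and a kinase complex switched on by Toll-like receptors, the IL-1 receptor or TNF receptors marks the inhibitors for degradation. Several inhibitors are themselves NF-kB targets, so their transcripts follow the pathway's activity as negative feedback. In neutrophils the pathway drives cytokine and chemokine genes and survival, and in injured tubules it drives chemokines that draw leukocytes.

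The cells came from wild type male C57BL/6 mice aged 8 to 12 weeks, as sorted PMNs and as TECs from kidney. They were taken 24 hours after surgery. The paper does not name the tissue of the sequenced PMNs. Ischemia-reperfusion injury (IRI) was a clamp of the renal pedicles for 32 min, and sham was the operation without it. Remote ischemic preconditioning (RIPC) was 3 inflations of a hind limb cuff for 5 min each, and control animals had the cuff without limb ischemia. The 8 groups were each cell type after sham or IRI, with control or RIPC. Groups of 3 libraries numbered 5, and the sham control and IRI control groups of PMNs and the IRI control group of TECs had 2 each. All mice were wild type, so no group tests a gene of the pathway by its loss. The study describes 3 libraries per group as biological replicates, so the 3 groups of 2 hold fewer here than it states. The labels do not say whether PMNs and TECs came from the same mice.

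On GRCm38 the subunits lie at chr3:135584655-135691547 on the minus strand (Nfkb1), chr19:46304320-46312385 on the plus strand (Nfkb2), chr11:23736847-23770970 on the minus strand (Rel), chr19:5637483-5648130 on the plus strand (Rela) and chr7:19606217-19629438 on the minus strand (Relb). The inhibitors lie at chr12:55489410-55492647 on the minus strand (Nfkbia), chr7:30421732-30428746 on the plus strand (Nfkbid), chr17:45555703-45563169 on the plus strand (Nfkbie), chr16:55811375-55838899 on the minus strand (Nfkbiz) and chr10:19000910-19015657 on the minus strand (Tnfaip3). Nfkb2 overlaps Psd and AC114539.1, and Nfkb1 overlaps Gm43430, and without strand in the counting their reads cannot be told apart where exons coincide. Values are sums over all exons of a gene, untranslated regions included.

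Because several of these genes are known targets of their own pathway, their promoters were searched for kappa B letters. RefSeq promoter windows of GRCm38.p6, which run from 250 bases before a gene's start to 50 after it, were matched for 7 members, and none was used for Nfkb1, Relb and Nfkbiz. The kappa B consensus of 10 letters, searched on both strands, occurred in a window of 6 of these 7 members (Nfkb2, Rel, Nfkbia, Nfkbid, Nfkbie and Tnfaip3, not Rela), against 9.55% of the 27025 genes with a window and 8.46% of all 32851 windows. Such a match describes letters and is no evidence of binding. The 130 bases that hold the matches are shown for these 6 genes, since 4 of them separate the surgeries in PMNs below, in the direction of transcription and with matched letters in capitals. Each ends at the base before the start except that of Nfkbid, which runs from 236 to 107 bases before it. Where a gene has several RefSeq starts the window with the most matches was used. The stretches lie at chr19:46304607-46304736 (Nfkb2, plus strand), chr11:23770970-23771099 (Rel, minus strand), chr12:55492648-55492777 (Nfkbia, minus strand), chr7:30422170-30422299 (Nfkbid, plus strand), chr17:45555570-45555699 (Nfkbie, plus strand) and chr10:19015411-19015540 (Tnfaip3, minus strand).
Nfkb2: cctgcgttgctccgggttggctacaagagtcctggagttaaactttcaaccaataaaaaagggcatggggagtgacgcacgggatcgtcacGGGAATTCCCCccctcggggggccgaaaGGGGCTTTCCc
Rel: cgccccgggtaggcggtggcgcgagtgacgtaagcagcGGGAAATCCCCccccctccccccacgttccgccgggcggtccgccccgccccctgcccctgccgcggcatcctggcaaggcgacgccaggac
Nfkbia: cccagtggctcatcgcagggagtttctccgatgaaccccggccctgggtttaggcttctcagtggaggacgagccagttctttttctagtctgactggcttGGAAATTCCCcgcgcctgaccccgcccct
Nfkbid: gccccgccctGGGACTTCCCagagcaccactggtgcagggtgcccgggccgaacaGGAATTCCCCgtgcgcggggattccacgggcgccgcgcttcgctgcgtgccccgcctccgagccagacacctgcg
Nfkbie: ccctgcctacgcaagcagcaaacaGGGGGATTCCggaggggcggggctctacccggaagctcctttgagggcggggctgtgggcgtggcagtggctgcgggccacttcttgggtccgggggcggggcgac
Tnfaip3: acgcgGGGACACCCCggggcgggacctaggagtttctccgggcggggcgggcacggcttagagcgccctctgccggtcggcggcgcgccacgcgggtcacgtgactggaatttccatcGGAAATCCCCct
The longer capital runs of Nfkb2 and Rel are each a pair of matches shifted by 1 base. Nfkb2 had 3 matches, beginning 39, 38 and 11 bases before the start. Nfkbia had its match beginning 29 bases before the start, and Tnfaip3 had matches beginning 125 and 12 bases before it.

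Libraries held 2.09e+07 to 5.16e+07 reads. A gene with 0 reads could still have had up to 6 reads (3 in each file), or 0.149 to 0.311 CPM, and such limits cover counting error only, since the cDNA was amplified by PCR without molecular identifiers. Neutrophil markers (10 genes, S100a8, Ly6g and Csf3r among them) summed to 6072 to 33526 CPM in PMNs, all 10 with reads, and to 1.71 to 109 CPM in TECs. Proximal tubule markers (10 genes) summed to 2832 to 17368 CPM in TECs, but also to 570 to 11406 CPM in PMNs. Within PMNs, macrophage and monocyte markers (9 genes, all with reads) summed to 3101 to 9286 CPM after sham and 1163 to 2252 after IRI, and proximal tubule markers to 1330 to 11406 and 570 to 1024, so neither overlapped between surgeries. Neutrophil markers in PMNs overlapped, at 6072 to 27992 CPM after sham and 12702 to 33526 after IRI. The overlap came from sham control replicate 1 (27992 CPM), and the other sham libraries lay at 6072 to 10927 CPM, below every IRI library. Reads per library in PMNs did not overlap either, at 2.09e+07 to 2.35e+07 after sham and 2.57e+07 to 3.05e+07 after IRI. Within TECs, neutrophil markers summed to 1.71 to 32.4 CPM after sham, with Ly6g, Ltf and Camp at 0, and to 34.6 to 109 after IRI, with Camp at 0, while proximal tubule markers were at 11920 to 17368 and 2832 to 7991. Macrophage and monocyte markers in TECs summed to 3.25 to 26.7 CPM after sham and 28.2 to 54.6 after IRI. Sums of the other lists over all libraries were 45.3 to 5230 CPM for distal tubule and collecting duct, 4.18 to 269 for endothelium, 0.161 to 134 for lymphocytes, 0 to 106 for fibroblasts and 5.04 to 831 for erythrocytes. Replicate 2 of the PMN sham control group stood apart, with the highest proximal tubule sum (11406 CPM), distal sum (5230 CPM) and mitochondrial share (13.0%) of the PMNs. In these bulk samples fewer cells of a type and less RNA per cell cannot be told apart.

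**Figure D1:**
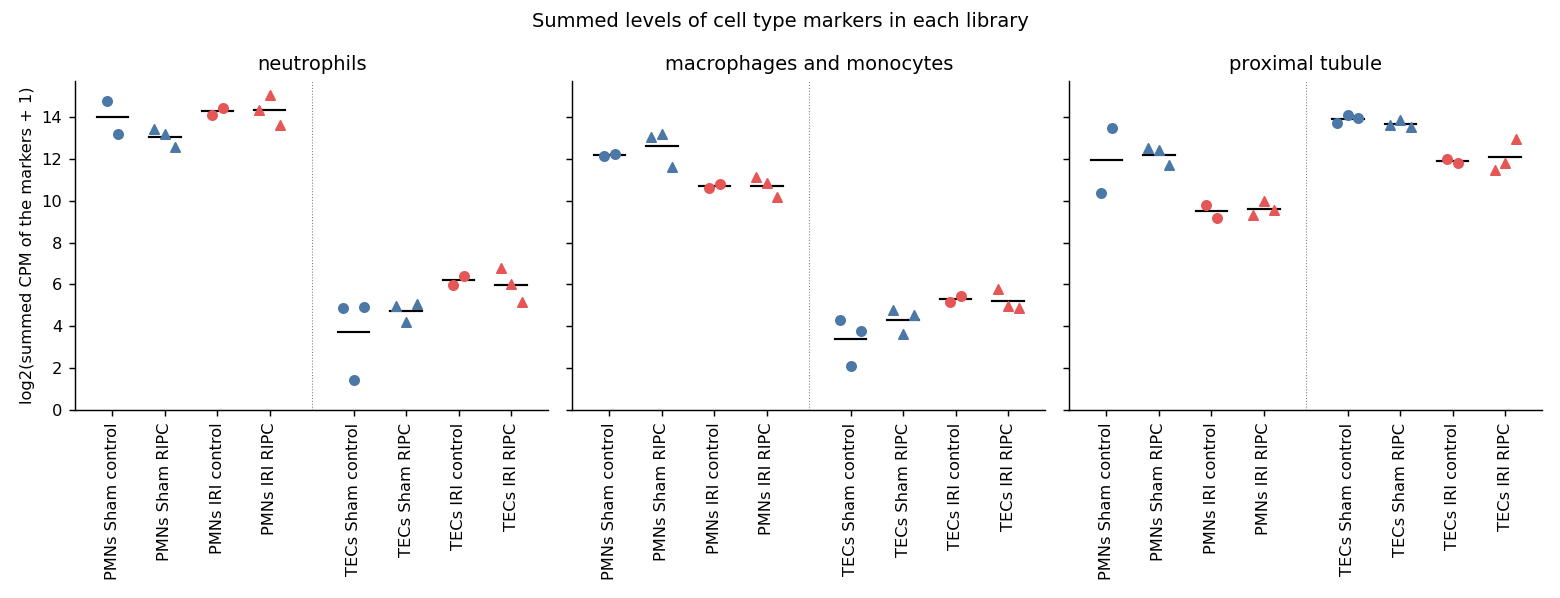
Summed CPM of neutrophil, macrophage and monocyte, and proximal tubule markers in each library, as log2(sum + 1) on the y axis. Each point is a library of the group named on the x axis. The PMN libraries after IRI sit below those after sham for the macrophage sum (1163 to 2252 against 3101 to 9286 CPM) and the proximal tubule sum.

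To compare members with each other, the deposited TPM values, which scale reads to transcript length and library size, were added per gene. Nfkbia, the prototypical I kappa B, had the highest level of the 10 in both cell types and after both surgeries. Its mean was 359 ± 217 TPM in PMNs after sham and 1754 ± 539 after IRI (SD, n = 5 each), and 38.6 ± 14.7 in TECs after sham (n = 6) and 59.5 ± 41.4 after IRI (n = 5). Its range lay above that of the next member in PMNs after either surgery and in TECs after sham, and overlapped it in TECs after IRI.

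In PMNs the order after Nfkbia was Nfkbiz, Nfkbid and Tnfaip3 after both surgeries, and each of these neighbours overlapped in range. Nfkbiz, a nuclear I kappa B that serves as a cofactor for secondary response genes, had 28.0 TPM after sham and 194 after IRI, leaving out a transcript of 188 bases. That transcript has an effective length of 8 bases, over which few reads give a high TPM. With it Nfkbiz had 66.4 and 350 TPM, and its mean after IRI was 196 TPM from the first files and 503 from the second. At the low end were Relb in PMNs after sham (0.428 TPM) and Rel in PMNs after IRI (5.37 TPM). In TECs Rela and Nfkbiz followed Nfkbia, at 6.95 and 7.17 TPM after sham and 15.5 and 13.7 TPM after IRI, and Rel was lowest (0.0704 and 0.267 TPM). Apart from the step below Nfkbia, the only neighbours in these orders whose ranges did not overlap were Nfkbiz and Nfkb1 in TECs after IRI.

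**Figure D2:**
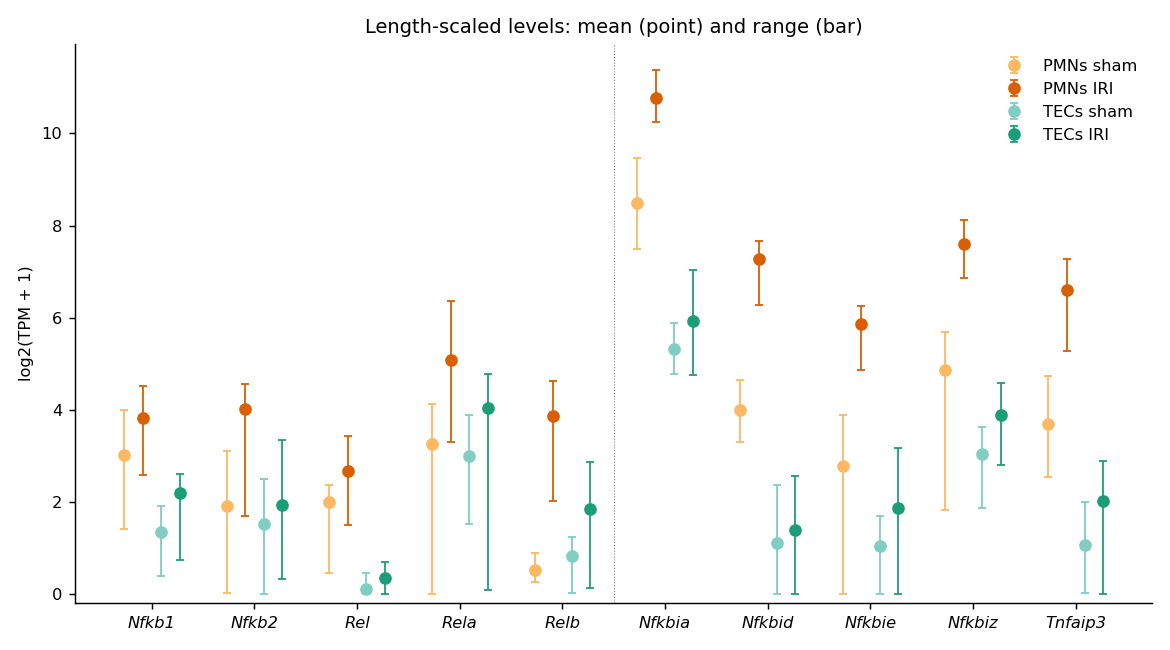
Levels per length of the 10 members in PMNs and TECs after sham or IRI, as log2(TPM + 1) on the y axis, with transcripts under 200 bases left out. Points are means over libraries (n = 5 or 6) and bars run from the lowest to the highest library, and Nfkbia stands highest in all 4 sets.

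The effect of IRI on neutrophils was compared over 5 IRI and 5 sham libraries, averaging control and RIPC. Relb, Nfkbia and Nfkbid rose, all 10 members had a log2 fold change above 0 (with the control groups alone that of Rela was -0.39) against 49.7% of genes, and 6 members did not overlap between the surgeries. By the quasi-likelihood F test of edgeR with Benjamini-Hochberg adjustment, 3 of the 10 passed an adjusted p of 0.05, against 0.416% of the 25002 genes tested. Higher without overlap were 6 members, against 3.47% of all genes. The median log2 fold change of the members was 2.99, against -0.01 over all genes.

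**Figure D3:**
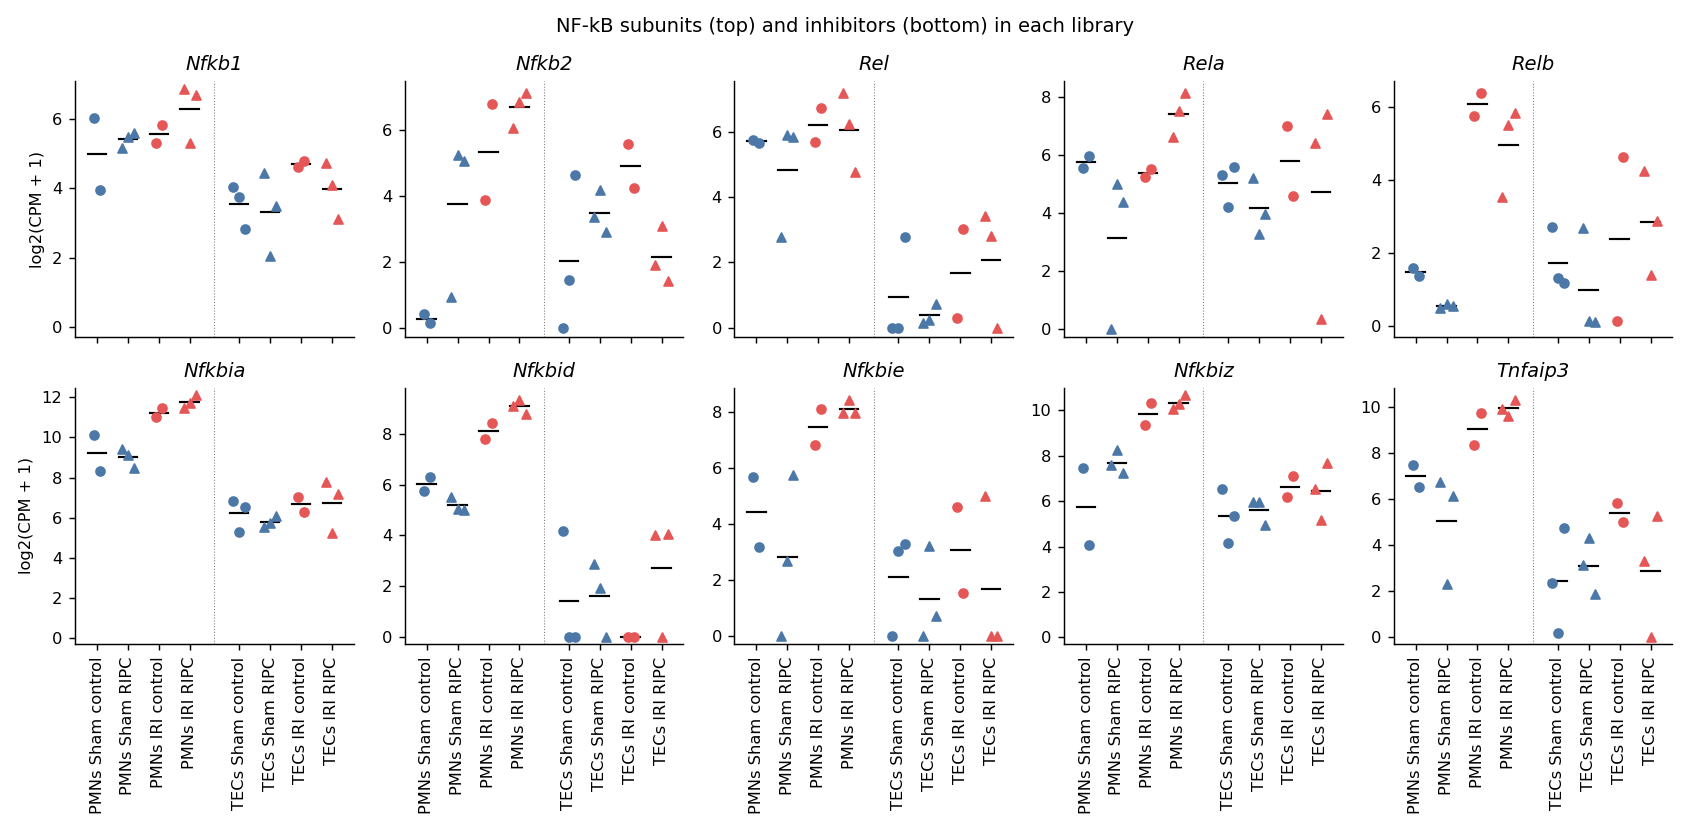
Level of each member in every library, as log2(CPM + 1) on the y axis, with subunits in the upper row and inhibitors in the lower. Each point is a library (circles control, triangles RIPC, blue sham, red IRI), the black line is the mean of the log2 values, and the dotted line divides PMNs from TECs. In PMNs the IRI libraries of all 5 inhibitors and of Relb lie above all sham libraries.

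Among the subunits, Relb, the partner of the Nfkb2 product in the noncanonical pathway, had the highest fitted change. Its sham PMNs were at 2.01 and 1.63 CPM in the control libraries (50 and 34 reads) and 0.423, 0.520 and 0.480 CPM in the RIPC libraries (9, 11 and 9 reads). After IRI it was at 52.8 and 83.8 CPM with control and 10.6, 44.4 and 56.3 CPM with RIPC. Every IRI library was thus above every sham library, at 49.6 ± 26.3 against 1.01 ± 0.749 CPM (SD, n = 5 each). The log2 fold change was 5.73 ± 0.80 (SE), a 53.2-fold rise, with an edgeR adjusted p of 0.0274. The size of this fold rests on the low sham counts.

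Nfkb2, the precursor processed in the noncanonical pathway, was at 0.332 and 0.0957 CPM in sham control PMNs (8 and 2 reads) and at 0.891, 36.7 and 32.4 CPM with RIPC. After IRI it was at 13.5 and 109 CPM with control and 66.4, 114 and 139 CPM with RIPC, so a control library lay within the sham range. Its log2 fold change was 5.15 ± 1.16 with an edgeR adjusted p of 0.144, and rests on the near-empty sham control libraries.

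Rela, the subunit with the main transactivation domain of the canonical dimer, was at 45.1 and 60.7 CPM (sham control), 0, 30.6 and 19.8 (sham RIPC), 36.4 and 44.7 (IRI control) and 95.4, 179 and 279 CPM (IRI RIPC). The IRI control libraries lay among the sham ones and the IRI RIPC libraries above them. Rel, prominent in lymphoid and myeloid cells, was at 53.6 and 50.0, 5.80, 58.6 and 56.3, 50.4 and 106, and 147, 75.4 and 26.3 CPM in the same order. Nfkb1, whose product binds DNA but lacks a transactivation domain, was at 64.6 and 14.5, 34.9, 43.9 and 47.6, 38.8 and 55.9, and 114, 38.2 and 103 CPM. The sham and IRI libraries of these 3 genes overlapped, and their log2 fold changes were 1.52 ± 1.18 (Rela), 0.81 ± 0.72 (Rel) and 0.63 ± 0.56 (Nfkb1), with edgeR adjusted p-values of 0.611, 0.674 and 0.670.

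All 5 inhibitors separated the surgeries in PMNs. Nfkbid, a nuclear I kappa B of macrophages and lymphocytes, was at 52.4 and 77.8 CPM in sham control and 44.9, 31.8 and 31.3 CPM in sham RIPC libraries. After IRI it was at 224 and 349 CPM with control and 561, 659.9 and 443 CPM with RIPC. Both IRI groups were above all sham libraries, at 447 ± 171 against 47.6 ± 19.1 CPM. The log2 fold change was 3.03 ± 0.32, or 8.15-fold, with an edgeR adjusted p of 0.00879.

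Nfkbia, resynthesised as the classical feedback brake, was at 1122 and 321 CPM (sham control), 687, 558 and 349 (sham RIPC), 2064 and 2805 (IRI control) and 2863, 3320.2 and 4480.2 CPM (IRI RIPC). The lowest IRI library was above the highest sham library. Nfkbia rose by 2.23 ± 0.37 on the log2 scale, or 4.70-fold, with an edgeR adjusted p of 0.0484.

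Nfkbiz was at 174 and 15.8 CPM (sham control), 189, 299 and 152 (sham RIPC), 653 and 1272 (IRI control) and 1051, 1235 and 1618 CPM (IRI RIPC). Tnfaip3, the ubiquitin-editing enzyme A20 that ends signalling to the kinase complex, was at 177 and 93.0, 106, 4.05 and 70.1, 329 and 855, and 968, 790.4 and 1289 CPM in the same order. Nfkbie, I kappa B epsilon, was at 51.0 and 7.94, 0, 5.37 and 52.6, 112 and 279, and 249, 349.5 and 250.5 CPM. None of the 3 overlapped between surgeries, yet their sham libraries spread widely. Their log2 fold changes were 2.96 ± 0.61 (Nfkbiz), 3.10 ± 0.76 (Tnfaip3) and 3.30 ± 1.40 (Nfkbie), and the edgeR adjusted p-values were 0.112, 0.170 and 0.413.

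The calls depended on single libraries. Relb kept its call only without a sham RIPC library or without IRI RIPC replicate 1 (adjusted p from 0.0523 to 0.142 without each of the other 6), Nfkbia only without either sham control library, where its log2 fold change was 2.83 (replicate 1) and 1.97 (replicate 2), and Nfkbid lost its call only without IRI RIPC replicate 2 (adjusted p = 0.0561). Members called numbered 0 without IRI RIPC replicate 2, 1 without IRI RIPC replicate 3 or either IRI control library, and 3 without the sham control library that stood apart, when they were Nfkbia, Nfkbid and Nfkbiz (adjusted p = 0.0381 for Nfkbiz). The log2 fold change of Nfkbie was 4.27 without sham control replicate 1 and 4.69 without sham RIPC replicate 3, that of Nfkb2 was 4.09 without IRI control replicate 2, and that of Nfkb1 was 1.37 without sham control replicate 1. Nfkbiz was also called without sham control replicate 1 (log2 fold change 4.26), and Tnfaip3 without sham RIPC replicate 2 (adjusted p = 0.0405). Within the control groups alone edgeR called 0 members and within the RIPC groups alone 1. The macrophage, proximal tubule and depth ranges given above moved with surgery in the same libraries. So did the neutrophil sums, apart from that of sham control replicate 1. The part of these in the result was not tested.

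The same comparison in TECs asked whether the injured epithelium itself changed these genes, over 5 IRI and 6 sham libraries. No member passed the test: edgeR called 0 of 10, against 1.4% of the 25917 genes tested, with 0 at an unadjusted p under 0.05 against 15% of genes. The Wald test of DESeq2 called 1, Nfkbid, lower, which rests on a group at 0, and 2126 of the 25917 genes. No member separated the surgeries, against 1.59% of genes higher and 3.02% lower without overlap. The fitted log2 fold change was above 0 for 9 of 10, against 53.6% of genes, with a median of 1.21 against 0.15 over all genes, and leaving out single libraries turned the direction of Nfkb2, Relb, Nfkbid and Nfkbie.

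Nfkbia was at 115, 38.7 and 92.2 CPM in sham control TECs, 46.1, 52.0 and 67.3 with sham RIPC, 132 and 78.1 with IRI control and 215, 37.2 and 144 with IRI RIPC. Nfkbiz was at 92.1, 17.0 and 40.0, 61.3, 60.5 and 29.7, 71.6 and 135, and 90.4, 34.7 and 206 CPM. The sham and IRI libraries of both genes overlapped, although the highest was after IRI, with log2 fold changes of 0.77 ± 0.48 and 1.06 ± 0.55 and edgeR adjusted p-values of 0.493 and 0.386.

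Rela was at 37.9, 17.2 and 46.8 CPM in sham control, 35.9, 8.67 and 14.6 in sham RIPC, 125 and 22.8 in IRI control and 82.5, 0.253 and 167 in IRI RIPC libraries. An IRI RIPC library near 0 and another at the highest value of the TECs lay in the same group. The log2 fold change of Rela was 1.55 ± 0.93 with an edgeR adjusted p of 0.470. Nfkb1 lay between 3.12 and 20.8 CPM after sham and 7.64 and 26.4 after IRI, and its log2 fold change was 0.80 ± 0.75 with an edgeR adjusted p of 0.686.

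The rest were low and patchy in TECs. Rel was at 0 in 3 of 11 libraries and at most 9.74 CPM, and Nfkbie was at 0 in 4 and at most 31.0 CPM. Tnfaip3 lay between 0 and 55.6 CPM, Nfkb2 between 0 and 46.6, and Relb between 0.0883 and 23.9. Their edgeR adjusted p-values lay between 0.547 and 1. Nfkbid was at 17.1, 0 and 0 CPM in sham control, 6.33, 2.76 and 0 in sham RIPC, 0 and 0 in IRI control and 15.3, 0 and 15.7 in IRI RIPC libraries. Its fitted fold is prior-dependent because both IRI control libraries had no reads. Against the level that a count of 0 allows per library (0.257 CPM on average), the mean of IRI control was at least 22.2-fold lower than that of sham control (5.69 CPM), a mean that comes from a single sham library. The neutrophil marker sums of TECs were also higher after IRI (34.6 to 109 against 1.71 to 32.4 CPM). So were their macrophage and monocyte sums (28.2 to 54.6 against 3.25 to 26.7 CPM). The part of both in the TEC values was not tested.

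**Figure D4:**
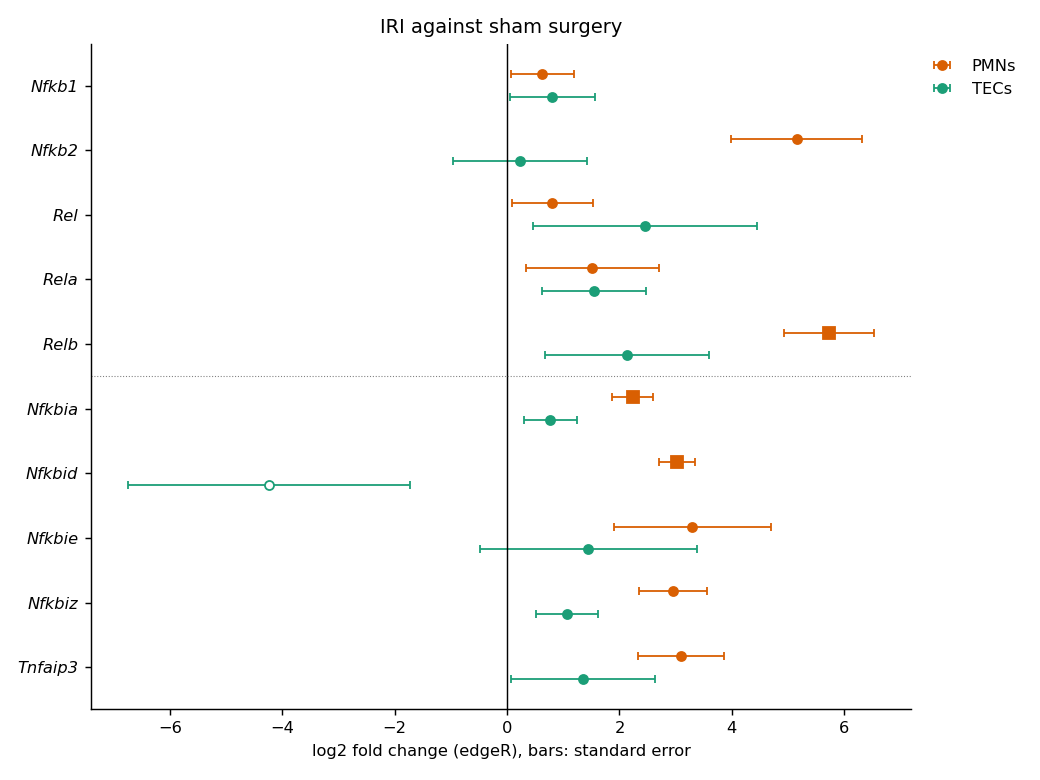
Log2 fold change of IRI against sham for the 10 members in PMNs and TECs (edgeR, bars are the SE). Squares mark adjusted p-values under 0.05 (Relb, Nfkbia and Nfkbid in PMNs), circles the others, and the open symbol is Nfkbid in TECs, whose IRI control libraries both had 0 reads. All PMN values lie above 0, that of Rela only while the RIPC groups are included.

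The difference between the IRI effects of PMNs and TECs was tested directly in a fit of all 21 libraries. EdgeR called 0 of the 10 members and 0 of the 31769 genes (0%), with 5 members at an unadjusted p under 0.05 against 9.76% of genes. DESeq2's Wald test called 2 members, Nfkb2 and Nfkbid, and 2230 of the 31769 genes. The effect was more positive in PMNs by 7.21 ± 2.52 (Nfkbid), 4.93 ± 1.73 (Nfkb2), 3.59 ± 1.72 (Relb), 1.89 ± 0.85 (Nfkbiz) and 1.44 ± 0.64 (Nfkbia) on the log2 scale, with edgeR adjusted p-values of 0.326, 0.326, 0.512, 0.471 and 0.463. The value of Nfkbid depends on the prior count, and was 2.16 without TECs sham control replicate 1. Relb was 1.61 without TECs sham RIPC replicate 1, 6.96 without TECs IRI control replicate 2 and 4.22 without TECs IRI RIPC replicate 1. Nfkb2 was 3.41 without TECs sham control replicate 3, 3.94 without PMNs IRI control replicate 2 and 5.54 without PMNs sham control replicate 1, and without the latter library Nfkbiz was 3.23 and Nfkbia 2.08. The other 5 differences lay between -1.64 (Rel) and 1.80 (Nfkbie). A difference between the cell types was thus not shown for any member by edgeR with its filter on low counts (without the filter it called 2, Nfkb2 and Nfkbid), although PMNs and not TECs held members that passed on their own.

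Averaged over the 4 conditions, PMNs held more transcript than TECs for 6 members: Nfkb1, Rel, Nfkbia, Nfkbid, Nfkbiz and Tnfaip3. EdgeR called these 6 of 10, all higher in PMNs, against 6.87% of the 31769 genes in either direction and 2.91% higher. Only Nfkbia and Nfkbid did not overlap between PMN and TEC libraries, against 0.815% of genes higher in PMNs without overlap.

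Nfkbia had 1857 ± 1461 CPM in PMNs (n = 10) and 92.4 ± 55.0 in TECs (n = 11), 15.2-fold higher at a log2 fold change of 3.92 ± 0.36, with an edgeR adjusted p of 7.15e-07. Its lowest PMN library (321 CPM) was above its highest TEC library (215 CPM). Rel had 62.9 ± 39.6 against 2.73 ± 3.68 CPM, a log2 fold change of 5.01 ± 1.19 (7.14 without TECs sham control replicate 3), and an edgeR adjusted p of 0.0110. Tnfaip3 had 468 ± 463 against 17.5 ± 18.1 CPM, a log2 fold change of 4.04 ± 0.90 and an edgeR adjusted p of 0.00695.

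Nfkbiz had 666 ± 581 against 76.1 ± 54.6 CPM, a log2 fold change of 2.45 ± 0.44 (1.76 without PMNs sham control replicate 1) and an edgeR adjusted p of 0.00117. Nfkb1 had 55.5 ± 31.0 against 15.2 ± 8.08 CPM, a log2 fold change of 1.75 ± 0.49 and an edgeR adjusted p of 0.0325. Nfkbid was at 31.3 CPM or more in every PMN library and at 0 in 6 of 11 TEC libraries. Its edgeR adjusted p was 0.00343. After IRI with control treatment its PMNs (287 CPM) were at least 1117-fold above the TEC floor. In the sham groups alone its log2 difference was 3.54 with an edgeR adjusted p of 0.227.

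Rela overlapped between the cell types, at 79.0 ± 86.0 CPM in PMNs and 50.7 ± 52.7 in TECs, with a log2 fold change of 0.17 ± 0.79. For Nfkb2 and Relb the values were 0.37 ± 0.82 and 0.50 ± 0.83, and both turned below 0 in the sham groups alone (-2.09 and -1.29). Nfkbie had a log2 fold change of 3.47 ± 1.31 and an edgeR adjusted p of 0.133, which passed without TECs IRI RIPC replicate 1 (0.0106). The call of Nfkb1 was lost without any of 12 of the 21 libraries (PMNs sham control 1, both PMNs IRI control libraries, PMNs IRI RIPC 1 and 3, TECs sham control 3, TECs sham RIPC 2 and 3, both TECs IRI control libraries, TECs IRI RIPC 2 and 3), with an adjusted p up to 0.227. Members called numbered 1 in the sham groups alone, Nfkbia, and 3 in the IRI groups alone. The cell types came from separate isolations, which cannot be told apart from cell type.

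The question put by RIPC was whether preconditioning changed the cells 24 hours after each surgery. EdgeR called 0 members in each of the 4 comparisons of RIPC with control. The comparisons after sham and after IRI use separate libraries.

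In PMNs after sham, 1 gene of 25002 was called (0.004%). At an unadjusted p under 0.05 there was 1 member, Nfkb2, against 4.6% of genes. DESeq2 called it both by the Wald test, which called 770 of the 25002 genes, and by the shrunken fold change with an s-value under 0.01. Nfkb2 was at 0.891, 36.7 and 32.4 CPM with RIPC against 0.332 and 0.0957 with control (18, 806 and 624 reads against 8 and 2). The groups did not overlap, but the lowest RIPC library was near the control level, and the log2 fold change was 6.72 ± 1.84 with an edgeR adjusted p of 0.705. Relb, Rela and Nfkbid were lower with RIPC without overlap, with log2 fold changes of -1.97 ± 0.89, -1.68 ± 1.60 and -0.88 ± 0.41 and edgeR adjusted p-values of at least 0.705. Among all genes 4.66% were higher and 8.01% lower without overlap.

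In PMNs after IRI edgeR called 0 members and 0 genes (0%), with 0 members at an unadjusted p under 0.05 (2.72% of genes) and 0 by DESeq2. Rela, Nfkbia and Nfkbid were higher with RIPC without overlap, against 6.89% of genes. Rela was at 95.4, 179 and 279 CPM with RIPC against 36.4 and 44.7 with control. Nfkbid was at 561, 659.9 and 443 CPM against 224 and 349. The log2 fold changes were 2.14 ± 1.76 (Rela), 0.91 ± 0.42 (Nfkbid) and 0.50 ± 0.50 (Nfkbia), and the edgeR adjusted p-values were 0.92 or above. These groups hold 3 and 2 libraries.

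In TECs after sham, where 0 genes were called (0%), no member passed an unadjusted p of 0.05 (4.53% of genes did) or was called by DESeq2. Log2 fold changes ran from -2.58 ± 2.75 (Rel) to 0.38 ± 1.60 (Nfkb2), with an edgeR adjusted p of 1 throughout.

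In TECs after IRI 1 gene of 25917 was called (0.00386%). Nfkbid, at 15.3, 0 and 15.7 CPM with RIPC and 0 in both control libraries, had an unadjusted p under 0.05 (4.35% of genes did) and an edgeR adjusted p of 0.778. Nfkbid was called by the Wald test of DESeq2 (as were 669 of the 25917 genes) and not by its shrunken fold change. The RIPC mean of Nfkbid (10.4 CPM) was at least 40.3-fold above the floor of the control libraries, although a RIPC library was also at 0. Nfkb2 was lower with RIPC without overlap (2.77, 7.57 and 1.66 against 46.6 and 17.8 CPM), against 8.96% of genes, with a log2 fold change of -2.96 ± 1.81 and an edgeR adjusted p of 0.778. The other 8 lay between -1.49 (Tnfaip3) and 0.52 (Rel).

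**Figure D5:**
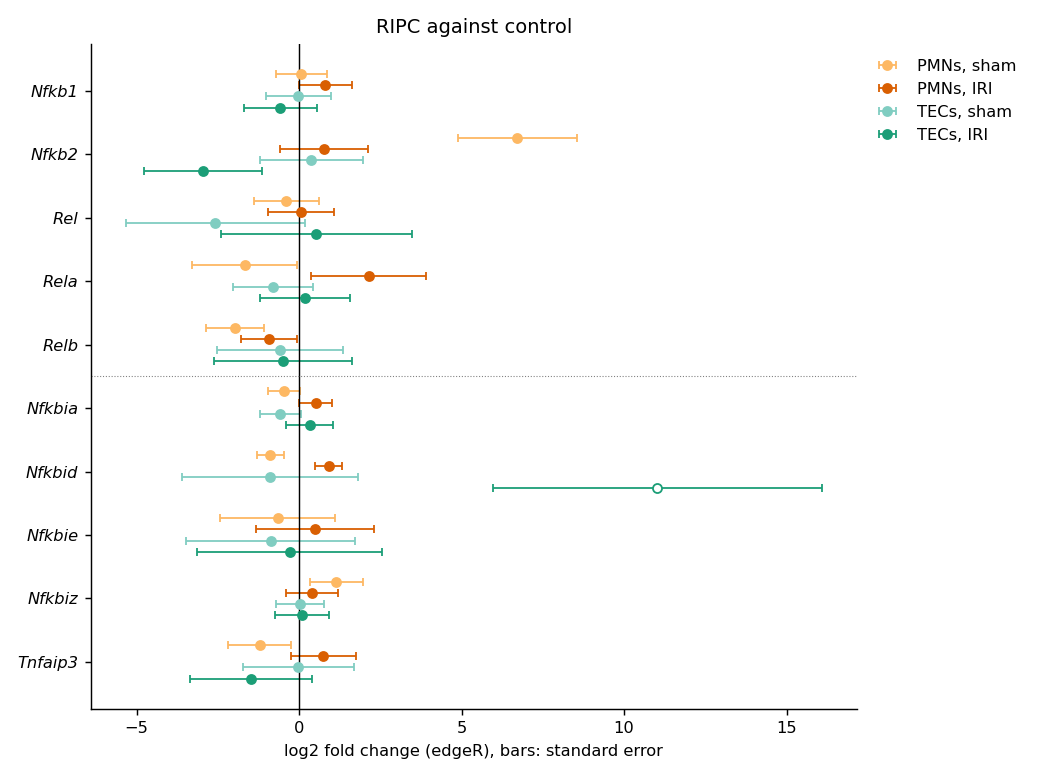
Log2 fold change of RIPC against control for the 10 members, in PMNs and TECs after sham and after IRI (edgeR, bars are the SE). No member passed an adjusted p of 0.05, so all symbols are circles, and the open symbol is Nfkbid in TECs after IRI, whose control libraries both had 0 reads. Nfkb2 in PMNs after sham (6.72 ± 1.84) rests on control libraries with 8 and 2 reads.

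Whether RIPC acted differently after IRI than after sham was tested as an interaction. EdgeR called 0 members and 0 genes (0%) in either cell type. In PMNs, Nfkb2 and Nfkbid had an unadjusted p under 0.05 (5.74% of genes did), at -5.96 ± 2.06 and 1.79 ± 0.59 on the log2 scale, with an edgeR adjusted p of 0.719 for both and 0 members by DESeq2. In TECs 1 member, Nfkbid, had an unadjusted p under 0.05 (7.21% of genes did). DESeq2 called Nfkbid, on a control group at 0, and 578 of the 25917 genes.

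The rest of the pathway was followed in 4 lists, which were chosen with earlier results of these data known. Their counts and medians beside those of all genes describe the lists and are no independent support. In PMNs, edgeR called 10 of 47 target genes tested higher after IRI and 0 lower, against 0.364% of all genes called higher. Their median log2 fold change was 2.02 against -0.01 over all genes. At an unadjusted edgeR p under 0.05, 24 targets were higher and 3 lower, against 11.8% of all genes in either direction. DESeq2's Wald test called 20 targets higher and 3 lower, and 1127 and 697 of the 25002 genes. Lower without overlap were 3 targets, against 2.04% of all genes. Cxcl2, a chemokine for neutrophils, rose from 332 to 726 CPM after sham to 3265 to 6276 after IRI (log2 fold change 2.99 ± 0.26, edgeR adjusted p = 0.00672). Ccrl2, a receptor that presents chemerin, rose by 3.23 ± 0.24, Clec4e, a C-type lectin receptor, by 2.98 ± 0.37, Plek, a substrate of protein kinase C, by 2.72 ± 0.31 and Pim1, a survival kinase, by 2.28 ± 0.27. Of 25 receptors and ligands 3 rose, against the same 0.364%: Cd14, the co-receptor of Toll-like receptors (2.76 ± 0.38), Il1b, a ligand that switches on the pathway (1.97 ± 0.27), and Tnfrsf1a, a TNF receptor (2.68 ± 0.43).

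The signalling steps between receptor and subunits had no call in PMNs. Of 37 adaptors and kinases edgeR called 0 (8 at an unadjusted p under 0.05, against 11.8% of all genes, and 4 by DESeq2, which called 1824 of the 25002 genes), with a median of 1.32. Birc3, a ubiquitin ligase of the TNF receptor complex, was at 228 to 330.0 CPM after IRI and 15.8 to 199 after sham (2.17 ± 0.57, edgeR adjusted p = 0.203). Tab2, which links ubiquitin chains to the kinase Map3k7, was at 11.6 to 86.3 and 0.191 to 23.5 CPM (edgeR adjusted p = 0.281), and Ikbke, an I kappa B kinase relative, at 0.156 to 88.4 and 0 to 1.58 CPM (edgeR adjusted p = 0.255). Of 23 other inhibitors edgeR called 0 (2 at an unadjusted p under 0.05, 2 by DESeq2), with a median of 0.89. Tax1bp1, an adaptor of A20, had 1.27 ± 0.31 (edgeR adjusted p = 0.163), N4bp1, a brake on the kinase complex, 3.54 ± 1.35 (0.401) and Tnip3, an A20-binding protein, -1.97 ± 0.90 (0.413).

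In TECs after IRI 1 of 43 targets rose, Cxcl2, from 0 to 0.114 CPM after sham to 3.87 to 35.6 CPM after IRI (edgeR adjusted p = 0.0182), and 1 of 37 adaptors and kinases fell, Tab1, the activator of Map3k7, at 0 to 2.03 CPM against 0.757 to 39.8 after sham (edgeR adjusted p = 0.0410). Of all genes 0.255% were called higher and 1.15% lower. The medians of these lists were 0.59 and 0.28, against 0.15 over all genes. Of 19 receptors and ligands edgeR called 0 (3 at an unadjusted p under 0.05, against 15% of all genes, and 1 by DESeq2, which called 2126 of the 25917 genes), with a median of 0.23. Cd14 was at 77.5 to 183 CPM after IRI and 0 to 74.8 after sham (edgeR adjusted p = 0.161), Il1b at 0.159 to 29.5 and 0 to 2.44 (0.179) and Ager, which encodes a receptor of Hmgb1, at 0 to 34.3 and 0 to 6.64 CPM (0.194). Neutrophil marker sums in TECs were also higher after IRI, at 34.6 to 109 CPM against 1.71 to 32.4 after sham. Macrophage and monocyte sums were too, at 28.2 to 54.6 CPM against 3.25 to 26.7. The part of both in the values of Cxcl2, Cd14 and Il1b was not tested. Of 23 other inhibitors edgeR called 0 (2 at an unadjusted p under 0.05, 2 by DESeq2), with a median of 0.23. Sigirr, an inhibitory member of the IL-1 receptor family, had -1.90 ± 0.46 (edgeR adjusted p = 0.0617), Pdlim2, a ubiquitin ligase for Rela, 1.80 ± 0.68 (0.250), and Trib3, a pseudokinase, was at 0 to 18.0 CPM after IRI and 0 to 6.71 after sham (0.347).

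Between the cell types, 28 of 47 targets, 10 of 26 receptors and ligands, 3 of 37 adaptors and kinases and 2 of 23 other inhibitors were called higher in PMNs, against 2.91% of all genes, with median log2 fold changes of 5.65, 2.81, 0.60 and 0.61 against -0.02 over all genes. Lower in PMNs, as were 3.95% of all genes, were 1 adaptor or kinase list member, Skp1a, a subunit of a ubiquitin ligase (-1.46 ± 0.32), and 1 other inhibitor, Commd1, which promotes turnover of Rela (-1.39 ± 0.36). Many of these genes had few or no reads in TECs, so levels are given. Tnf was at 2.37 to 669 CPM in PMNs and 0 to 0.0757 in TECs, Il1b at 1157 to 11202 and 0 to 29.5, and Cxcl2 at 332 to 6276 and 0 to 35.6 CPM. Cd14, Plek, Pim1, Saa3 (an acute phase protein) and Mmp9 (a protease of neutrophil granules) also did not overlap. Tnfrsf1b and Tlr6, the adaptor Traf1, the kinase Map3k8, Birc3, and the inhibitors Zc3h12a (an RNase) and Irak3 (a brake on Toll-like receptor signalling) were called higher in PMNs with overlapping ranges. In the 4 comparisons of RIPC with control and in the tests of a difference between effects, edgeR called 0 genes of any of these lists. At an unadjusted p under 0.05 the counts per list were 0 to 7 in the RIPC comparisons and 0 to 12 in the others. Of all genes 2.72% to 4.6% and 5.74% to 9.76% had such a p. DESeq2's Wald test called 0 to 5 and 0 to 10 genes per list, and 407 to 770 and 578 to 2230 of all genes tested. The highest counts were those of targets, 7 of 43 in TECs sham RIPC and 12 of 47 in the difference of IRI effects. By DESeq2 they were 5 of 47 in PMNs sham RIPC and 10 of 47 in that difference.

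Across the 10 PMN libraries the log2(CPM + 1) of Nfkbia was most like that of Clec4e, Clec4d, Lmnb1, Srgn and Junb (Pearson's r from 0.987 to 0.993, among 8972 genes with a mean of at least 10 CPM). The nearest members ranked further down, Nfkbid at 233 (0.899), Nfkbiz at 239 (0.897) and Relb at 300 (0.884), and Rel was least alike (0.271). Across the 11 TEC libraries its nearest genes were Pgm2, Hip1, Ptbp3, Atp1b3 and Golt1b (0.865 to 0.881, among 8822 genes), and of the members Rela had 0.784, Nfkbiz 0.661 and Nfkb2 -0.13. These values describe libraries that share surgery, depth and isolation, and carry no test.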

How the data were processed

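RNA was extracted from sorted cells, copied into cDNA by oligo-dT priming and template switching, amplified by PCR and sequenced as single-end 50-base reads. The authors trimmed the reads (Trim Galore 0.6.4, per the submitters' processing notes, which also name mm10, FastQC, MultiQC and DESeq2) and quantified them with Salmon 1.0.0 against Gencode transcripts, correcting for sequence and GC bias. They deposited, for each transcript, an estimated count (not normalized), TPM and the effective length. Each library came in 2 files, whose counts differed by 0.0234 to 0.106 of the variance that independent reads would give, so they were added and a library counted once. Reads and depths given here are such sums, and they overstate the number of independent reads. What the 2 files are is not given in the sources used here.

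Of 140748 transcripts, 884 had no match in Gencode M21 of GRCm38 (the study names vM23), with 0.139% to 0.255% of the reads. Estimated counts were summed per gene and rounded. X, Y and mitochondrial genes were not tested, as in the study. CPM were scaled by TMM. R 4.3.3 with edgeR 4.0.16 and limma 3.58.1 gave the tests (quasi-likelihood F, TMM, filterByExpr), fitted to the 4 groups of a cell type or, for comparisons of cell types, to all 8, and Benjamini-Hochberg adjustment over all genes tested, at a threshold of 0.05. Depth was 2.09e+07 to 5.16e+07 reads a library, and the biological coefficient of variation was 1.65 (PMNs), 1.54 (TECs) and 1.67 (both), which limits the precision. P-values set a difference of group means against the spread between libraries, which was estimated over all groups of a fit and moderated across genes. The edgeR test of IRI against sham was run on simulated counts for each cell type, and the other comparisons were not.

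Alternatives were DESeq2 1.42.0 (Wald test, or apeglm 1.24.0 with an s-value under 0.01), its size factors, 2 other filters on low counts, each file alone, a length offset, robust dispersion, a replicate block, sex-linked and mitochondrial genes included, subsets of groups and each library left out. TPM without transcripts under 200 bases was added after seeing the data. The members and the lists (other inhibitors, receptors and ligands, adaptors and kinases, targets, cell type markers) were chosen with earlier results of these data known. All members are named, and from the other 4 pathway lists each direction's called genes up to 5, by smallest p, or the 3 with the smallest p where none was, in the IRI comparisons and between cell types. Likeness is Pearson's r of log2(CPM + 1) with the member of the highest TPM.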

Additional observations from a re-analysis of the deposited data

How the results depend on the processing

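The genes called by edgeR depended on the settings. Main counts were 104 (PMNs IRI against sham), 363 (TECs IRI against sham), 1 (PMNs sham RIPC), 0 (PMNs IRI RIPC), 0 (TECs sham RIPC), 1 (TECs IRI RIPC), 2182 (PMNs against TECs) and 0 for each of the 3 tests of a difference between effects. In that order, no filter on low counts gave 971, 1289, 139, 18, 54 and 71, then 722 (IRI effect between cell types), 101 and 84 (RIPC by surgery in PMNs and TECs). The Wald test of DESeq2 gave 1824, 2126, 770, 407, 413, 669 and 5167, then 2230, 632 and 578. DESeq2 with apeglm gave 528, 40, 62 and 246 in the 4 RIPC comparisons. At least 10 reads in every library gave 444, 683, 0 (PMNs sham RIPC), 0 (TECs IRI RIPC), 1191 (PMNs against TECs) and 123 (IRI effect). The control groups alone gave 0 in PMNs and 1 in TECs for IRI against sham, and the RIPC groups alone 62, 25 and 4 (IRI effect). The sham and the IRI groups alone gave 832 and 847 between cell types. The compared groups alone gave 0 in PMNs sham RIPC and 0 in TECs IRI RIPC, robust dispersion 4 in the latter and 5 for the IRI effect, the first files 2 and 1, and the second files 0 (PMNs sham RIPC) and 1 (IRI effect). Leaving out each library gave 13 to 393 (PMNs IRI against sham: 13 without IRI RIPC replicate 2, 393 without sham control replicate 1, 60 without sham control replicate 2), 92 to 714 (TECs IRI against sham), 0 to 11 (PMNs sham RIPC), 1 to 22 (TECs IRI RIPC), 0 to 124 (IRI effect) and 0 to 15 (RIPC by surgery in TECs).

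Members called in PMNs after IRI numbered 3, and 0 with the control groups alone, 1 with the RIPC groups alone, 7 with no filter, 6 with DESeq2 and 0 to 3 without single libraries. Between cell types 6 were called, and 1 in the sham groups alone, 3 in the IRI groups alone and 3 with 10 reads in every library. DESeq2 called 1 in TECs after IRI, 1 in PMNs sham RIPC (apeglm 1, no filter 1), 1 in TECs IRI RIPC, 2 for the IRI effect (no filter 2) and 1 for RIPC by surgery in TECs, where edgeR called 0. DESeq2's size factors moved the log2 fold changes of the members by a median of 0.12 in TECs after IRI and by less than 0.10 elsewhere. They turned only Rela in the IRI effect.

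Replicate numbers showed no clear pairing of the libraries within a cell type. Deviations of same-numbered libraries from their group means correlated between -0.0209 and 0.0239 in PMNs and between -0.0895 and 0.110 in TECs. Most like a library of their own number were 5 of 10 and 4 of 11 libraries. In groups of 2 libraries these deviations mirror each other by construction, so the check is weak. Pairing of PMNs with TECs was not tested. With the number as a replicate block the genes called were 23 (PMNs IRI against sham), 0 (PMNs sham RIPC), 3 (TECs IRI RIPC), 713 (PMNs against TECs) and 15 (IRI effect), and the members called 1 (PMNs IRI against sham) and 1 (PMNs against TECs). The block turned Nfkbie in TECs after IRI (-2.08), Rel (0.10), Nfkbid (1.99) and Tnfaip3 (2.62) in TECs sham RIPC, Rela (-0.67) and Nfkbiz (-0.25) in TECs IRI RIPC, Nfkb2 (-0.0575), Rela (-1.35) and Relb (-1.29) between cell types, Rela in the IRI effect (0.55) and Nfkbiz in RIPC by surgery in TECs (-0.45).

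Log2 fold changes of members that did not pass turned elsewhere too. With the control groups alone Rela in PMNs after IRI was -0.39. With the RIPC groups alone Nfkb2 (-1.43) and Nfkbid (1.73) turned in TECs after IRI, and Nfkb1 (0.48) and Rela (1.38) in the IRI effect. In the sham groups alone Nfkb2 was -2.09 and Relb -1.29 between cell types. The length offset gave Nfkb1 -0.19 (PMNs sham RIPC), Nfkbiz -0.30 (PMNs IRI RIPC), Tnfaip3 0.0256 (TECs sham RIPC), Nfkbiz -0.77 (TECs IRI RIPC), Rela 0.21 (IRI effect) and Nfkbiz -0.86 (RIPC by surgery in TECs). Nfkb1 in TECs sham RIPC was 0.0233 with 10 reads in every library, 0.0251 in the second files and 0.0644 with the compared groups alone, and Rela in the IRI effect was 0.0202 with size factors or DESeq2 and 0.0789 with sex-linked and mitochondrial genes.

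Leaving out single libraries turned these members, given as their lowest and highest values. TECs IRI against sham: Nfkb2 -0.22 to 1.83, Relb -1.20 to 4.20, Nfkbid -4.54 to 0.87, Nfkbie -4.06 to 3.07. PMNs sham RIPC: Nfkb1 -0.61 to 1.47, Rel -0.75 to 0.12, Nfkbia -1.07 to 0.67, Nfkbie -3.46 to 1.18. PMNs IRI RIPC: Nfkb2 -0.0683 to 2.96, Rel -0.63 to 0.70, Nfkbie -0.01065 to 1.31. TECs sham RIPC: Nfkb1 -0.79 to 0.42, Nfkb2 -0.21 to 3.57, Rel -3.65 to 6.07, Relb -4.73 to 0.29, Nfkbid -2.03 to 9.26, Nfkbiz -0.39 to 0.77, Tnfaip3 -0.94 to 2.16. TECs IRI RIPC: Rel -0.43 to 4.47, Rela -0.84 to 1.84, Relb -1.58 to 6.12, Nfkbia -0.20 to 0.76, Nfkbie -11.30 to 2.38, Nfkbiz -0.70 to 0.65. PMNs against TECs: Nfkb2 -0.23 to 1.11, Rela -0.0809 to 0.55. IRI effect: Nfkb1 -0.48 to 0.60, Rel -5.87 to 0.39, Rela -0.38 to 0.87. RIPC by surgery in PMNs: Nfkb1 -0.65 to 1.45, Rel -0.28 to 1.09, Nfkbia -0.15 to 1.60, Nfkbie -0.68 to 3.95, Nfkbiz -3.29 to 0.12. RIPC by surgery in TECs: Nfkb1 -1.003 to 0.21, Rel -5.55 to 7.01, Rela -0.0120 to 2.63, Relb -0.996 to 6.73, Nfkbie -10.42 to 3.85, Nfkbiz -0.70 to 0.63.

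In PMNs after IRI no member turned when a library was left out. The TPM of Nfkbiz there was 350, and 196 in the first files, 503 in the second and 194 without transcripts under 200 bases, where the short transcript is the difference. Apart from these fewer genes or fewer libraries, the cause of the other changes was not tested. Groups of 2 and 3 libraries limit every comparison with RIPC, and low counts limit Rel, Nfkbid and Nfkbie in TECs.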
